A study of Caenorhabditis elegans with 2 samples.

Results

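Nuclear hormone receptor genes on chromosome V of Caenorhabditis elegans are described here by the ELT-1 ChIP-seq signal at their promoters. The members are the protein-coding genes of chromosome V whose symbol is nhr- followed by digits, and there are 167 of them among 19973 protein-coding genes of the 6 nuclear chromosomes. A further 102 genes named in the same way lie on other chromosomes. Membership is set by name and chromosome, without any measured value, but the family was chosen with earlier results of these data known.

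The study holds 1 group of 2 biological replicates, numbered 1 and 2. Both are whole L2 larvae of mixed sex from strain OP354, with genotype unc-119(tm4063) III; wgIs354, which carries a transgene for ELT-1 fused to eGFP. The description names an immunoprecipitation of eGFP-ELT-1, while the antibody entry reads elt-1. Signal from any tissue of the animal is summed, the genotype lists no removal of the untagged elt-1 gene, and there was no second condition, so groups of genes and the replicates are all that can be compared.

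ELT-1 is a GATA factor, a zinc finger protein that recognises short DNA words containing GATA and specifies the epidermis in worm embryos. Nuclear hormone receptors are transcription factors with a zinc finger DNA-binding domain and a ligand-binding domain. The family is greatly expanded in C. elegans, mostly through copies related to the vertebrate receptor HNF4, and a large number of these lie close together on chromosome V. For most of the members no ligand is known, and those with described roles act in metabolism, stress and detoxification.

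The regions used are those of a pooled ranked list of 30000 regions, with a median signal of 7.81. The first 351 of them, with signals of 24.6 and above, make up the authors' thresholded list and are called peaks here. A region was given to a gene when its summit lay from 1000 bp upstream to 200 bp downstream of a transcript start. Fold means the signal of a region divided by the median signal of its own list, and rank 1 is the strongest region. Read depth is unknown, so intervals cover only the counting of genes or regions.

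The sequences that carry the strongest signal at these genes are shown first. All 10 of the members' peaks held GATAA on either strand within 50 bp of the summit (exact interval 69.2 to 100%). The share was 51.9% in promoter peaks of other genes, 57% in all 351 peaks and 22.8% in all promoter regions. In peaks of receptors outside V it was 3 of 9. Among the first 351 regions of replicate 1 alone, 7 of 9 member regions held it, against 51.1% for other genes. In replicate 2 alone it was 6 of 8, against 38.5%. The full count in the members' thresholded peaks depends on the distance. Within 25 bp, 7 of the 10 held GATAA (exact interval 34.8 to 93.3%), against 34.1% of promoter peaks of other genes. Within 100 bp it was 10 of 10, against 61.5%. In peaks of receptors outside V it was 2 of 9 within 25 bp and 6 of 9 within 100 bp. GATAA was not the word planned for this search, so these counts are a description. Each line gives 30 bases of the ce11 assembly (RefSeq copy) around the GATAA nearest to the summit of a peak, read 5′ to 3′ on the strand that reads GATAA, with that word and the base before it in capitals.
nhr-155, upstream peak at 212 bp: tatagcggatctTGATAAtgcggaaaatag
nhr-168: cgattaggccacCGATAAcagacaagattt
nhr-175: tgagatcagtgcAGATAAtgatctaagccc
nhr-179, peak at 200 bp downstream: gatgtccgtggtCGATAAggcaccgattta
nhr-155, upstream peak at 947 bp: gatttcaaagatCGATAAggctgatgagtg
nhr-260: ggcgaagcgacaCGATAAgatctccgaagt
nhr-68: tggttcactgaaCGATAAgaaacacgtgta
nhr-94 and nhr-152: gcactattaattAGATAAcatcttagatcg
nhr-179, peak at 4 bp downstream: gcgtctttgcatAGATAAgagacatagaga
nhr-127: tcgggatatgggCGATAAgatcccgtgcct

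In the order of the lines above, the 30 bases lie at chrV:539185-539214 on the plus strand, chrV:13333573-13333602 (minus), chrV:13866540-13866569 (plus), chrV:1618643-1618672 (minus), chrV:538479-538508 (minus), chrV:1512330-1512359 (minus), chrV:11572977-11573006 (plus), chrV:7686426-7686455 (plus), chrV:1618012-1618041 (plus) and chrV:16261035-16261064 (plus). At nhr-168 and at the stronger nhr-179 peak the word covered the summit itself, and elsewhere it lay 10 to 46 bp away. In 6 of the 10 lines the base before GATAA was C. At nhr-260 and nhr-127 the next 4 bases, GATC, were also alike.

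All bases within 50 bp of the strongest summit of any member, upstream of nhr-155 at chrV:539198-539298 on the plus strand, are given because this window held only GATAA at its very edge and none of the longer words searched.
nhr-155, summit window: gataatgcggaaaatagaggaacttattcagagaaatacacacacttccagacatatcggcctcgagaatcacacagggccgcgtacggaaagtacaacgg

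Of the 167 members, 75 had a ranked region in the promoter window, or 44.9% (exact 95% interval 37.2 to 52.8%). The share was 59.8% (61 of 102) for receptor genes outside V, 35.5% (1712 of 4827) for other genes on V and 40.7% over all protein-coding genes. The other 92 members had no region among the 30000, which says only that no listed summit fell in their windows. A single region was found for 58 members and 2 or more for 17, with at most 5 in 1 window. Together the 75 genes held 97 distinct regions, of which 2 lay in the windows of a pair of members and 8 were also in the window of a gene that is no receptor of V.

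A thresholded peak lay in the window of 9 members: nhr-155, nhr-168, nhr-175, nhr-179, nhr-260, nhr-68, nhr-94, nhr-152 and nhr-127. That is 12% of the 75 with a ranked region (exact 95% interval 5.64 to 21.6%), beside a background of 1.98% over all 8131 protein-coding genes with a ranked region there. Receptor genes outside V had 10 of 61 (16.4%, 8.15 to 28.1%). Other genes on V had 12 of 1712 (0.701%, 0.363 to 1.22%). The interval of the members therefore overlapped that of the receptors elsewhere and lay above that of other genes on V. These shares carry no test, since the family was chosen with earlier results of these data known, and the intervals do not allow for that choice. The genes nhr-94 and nhr-152 share 1 peak.

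**Figure D1:**
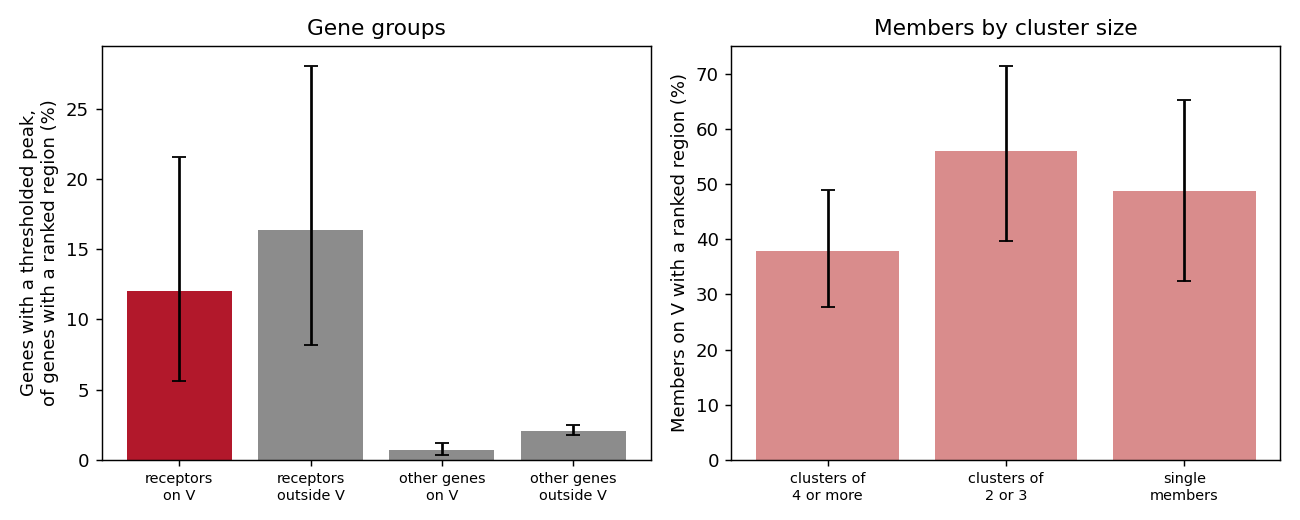
Left, percent of genes with a thresholded peak among genes with a ranked region in the promoter window, for receptor genes on V, receptor genes outside V, other genes on V and other genes outside V. Right, percent of members with a ranked region by the size of the cluster they lie in. Bars are shares and whiskers exact 95% intervals. Receptor genes on V stood at 12%, against 0.701% for other genes on V.

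Most of the members' regions were weak. The strongest region per member had a median fold of 1.19 (quartiles 0.937 and 2.14), against 1.20 for receptors outside V, 1.03 for other genes on V and 1.06 for all genes. Of the 97 regions, 10 were peaks, 14 more were within rank 1000, a further 12 within rank 5000 and 61 beyond 5000. Thus 24.7% of them were among the first 1000 regions, against 25.2% for receptors outside V, 3.18% for other genes on V and 5.0% for all genes. Of 99 pairs of a member and a region, 33 had the summit more than 500 bp upstream (33.3%, against 35.7% for other genes), 23 had it more than 200 and up to 500 bp upstream (23.2%, against 24.3%), 21 within 200 bp upstream (21.2%, against 20.9%) and 22 from 0 to 200 bp downstream (22.2%, against 19.1%). The summits of the members were thus spread over the window much as those of other genes.

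**Figure D2:**
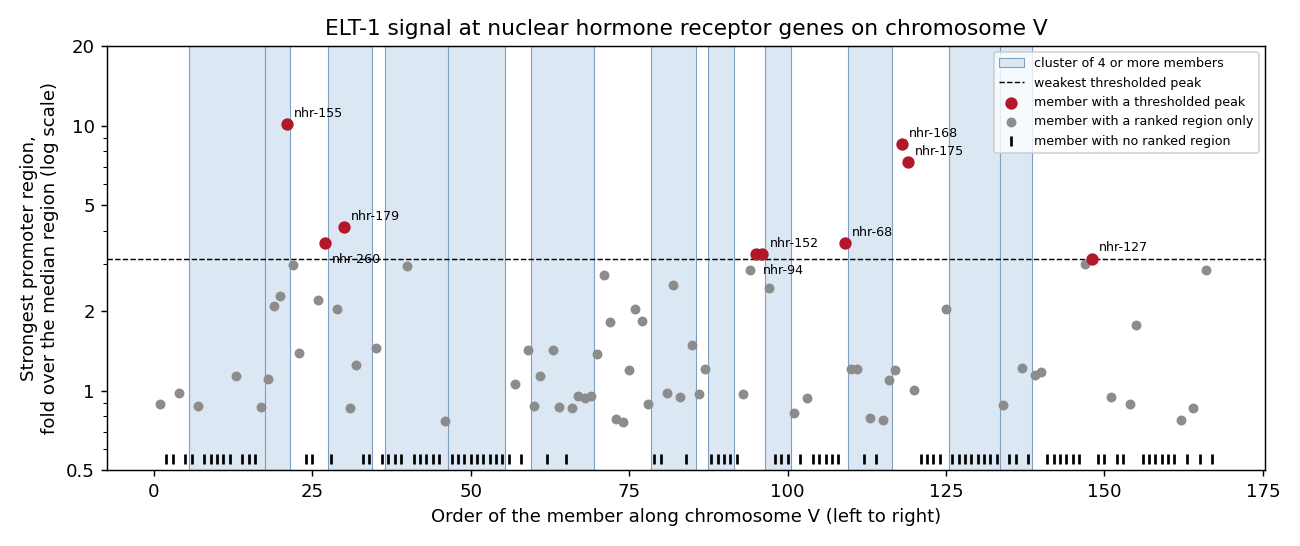
Fold of the strongest promoter region of each member in the pooled list (log axis), against the order of the 167 members along chromosome V. Red points are members with a peak, grey points members with a weaker ranked region, ticks at the bottom members with none, and shaded bands clusters of 4 or more members. The points above the line of the weakest peak are spread along the chromosome, with nhr-155 at 10.1-fold, nhr-168 at 8.51-fold and nhr-175 at 7.27-fold.

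The strongest region of any member lay upstream of nhr-155 (WBGene00015758, plus strand), at chrV:539116-539379 and 212 bp before the transcript start, between annotated genes. Its signal was 54.1 in replicate 1 (rank 10) and 25.9 in replicate 2 (rank 33), and 79.2 in the pooled list (rank 17). Over the median region of each list this was 11.6-fold and 5.01-fold, or 8.32 ± 4.69-fold (SD, n = 2). It was among the strongest regions of both libraries, and its fold was higher in replicate 1. A second peak of nhr-155, at chrV:538381-538644, had its summit 735 bp further upstream. It stood at 5.36-fold in replicate 1 (signal 24.9, rank 124) and 1.63-fold in replicate 2 (signal 8.41, rank 2485), so it was among the first 351 regions of replicate 1 only.

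The peak of nhr-168 (WBGene00008221, minus strand) lay at chrV:13333458-13333721, in a 5′ untranslated exon of the gene and 190 bp before an internal transcript start. Its signal was 36.6 in replicate 1 (rank 45) and 30.6 in replicate 2 (rank 22). At 7.87-fold and 5.92-fold (6.90 ± 1.38, SD, n = 2) it was the strongest member peak of replicate 2. The assignment rests on the internal start: with the outermost start of the gene alone, its strongest region stood at 1.10-fold.

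The third strong peak lay 149 bp upstream of nhr-175 (WBGene00008630, plus strand), at chrV:13866410-13866673 and between genes. Its signal was 37.8 in replicate 1 (rank 41) and 18.6 in replicate 2 (rank 90), or 8.14-fold and 3.60-fold (5.87 ± 3.21, SD, n = 2). The peaks of nhr-155, nhr-168 and nhr-175 were the only member regions above the median signal of all 351 peaks, 32.4.

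The nhr-179 gene (WBGene00017512, minus strand) had 2 peaks. The stronger, at chrV:1618528-1618791, had its summit 200 bp downstream of a transcript start, on the edge of the window and in a 5′ untranslated exon, at 3.85-fold in replicate 1 (rank 222) and 2.53-fold in replicate 2 (rank 321). The other, at chrV:1617936-1618199, lay 592 bp away and 4 bp downstream of another start, at 3.19-fold (rank 387) and 1.47-fold (rank 3985). This weaker peak was outside the first 351 regions of both replicates and entered the thresholded list with a pooled rank of 341.

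Next came nhr-260 and nhr-68. The peak of nhr-260 (WBGene00016517, minus strand), 720 bp upstream at chrV:1512225-1512488, stood at 3.03-fold in replicate 1 (rank 429) and 2.51-fold in replicate 2 (rank 330), the narrowest gap between replicates among the peaks (2.77 ± 0.37, SD, n = 2). NHR-68 works with NHR-10 in switching on the propionate shunt, an alternative route of propionate breakdown used when vitamin B12 is scarce. Its gene (WBGene00003658, plus strand) had a peak 474 bp upstream, at chrV:11572834-11573097, at 3.52-fold in replicate 1 (rank 294) and 2.32-fold in replicate 2 (rank 439). That summit lay in a coding exon of the neighbouring gene H12C20.7 and also in the promoter window of that gene, and it was the member peak shared with a gene outside the family.

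The pair nhr-94 (WBGene00003684, minus strand) and nhr-152 (WBGene00015705, plus strand) are divergent neighbours with 1 peak between them, at chrV:7686327-7686590, 124 bp upstream of nhr-94 and 77 bp inside nhr-152. It stood at 4.77-fold in replicate 1 (signal 22.2, rank 148). No summit of replicate 2 lay within 100 bp, and the strongest region of replicate 2 in the windows of both genes was at 1.06-fold (rank 12621). This peak therefore rests on replicate 1. The last peak of the thresholded list, rank 351, lay in an intron of nhr-127 (WBGene00003717, plus strand) at chrV:16260904-16261167, 611 bp before an internal start, at 3.75-fold in replicate 1 (rank 246) and 1.42-fold in replicate 2 (rank 4563).

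**Figure D3:**
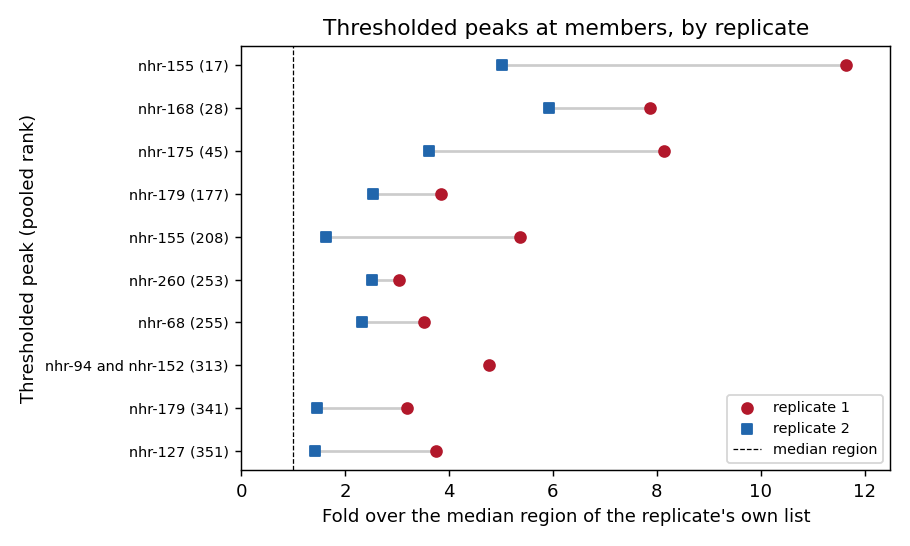
Fold over the median region of the replicate's own list for the 10 peaks of the members, with the pooled rank after each name. Circles are replicate 1 and squares replicate 2, joined where both had a summit within 100 bp. All 9 joined peaks were higher in replicate 1, and the peak of nhr-94 and nhr-152 had no match in replicate 2.

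The peaks sit at the top of a continuous range. The 10 further members with the strongest regions, next below the threshold, were nhr-218 (rank 393), nhr-251 (403), nhr-56 (408), nhr-145 (435), nhr-171 (441), nhr-57 (474), nhr-140 (579), nhr-44 (616), nhr-132 (746) and nhr-270 (816), with pooled signals of 23.6 down to 17.1. Of these, nhr-218 is the neighbour of nhr-127, with its summit 2686 bp from that peak, and it was even between replicates at 2.38-fold in replicate 1 and 2.37-fold in replicate 2. The window of nhr-171 consisted to 49.6% of 32-base words that occur more than once in the genome, a measure of repeats, and the part of the repeats in its value was not tested.

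The region 200 bp upstream of nhr-57 (rank 474), a gene induced in low oxygen through the hypoxia factor HIF-1,, stood at 3.50-fold in replicate 1 (signal 16.3, rank 299), with no summit of replicate 2 within 100 bp. The gene nhr-114, which protects the germ line when dietary tryptophan or vitamin B12 is low, had 4 ranked regions, the strongest 91 bp upstream at 1.82-fold (rank 1479) and 1.90-fold in replicate 1. Its window held both CGATAA and the usual word AGATAA, each 18 bp from the summit. The CGATAA site is shown, with that of nhr-150, as an example from under the threshold.
nhr-114, chrV:4187117-4187146, minus strand: agacactagacaCGATAAcaaatgcaaagt
nhr-150, chrV:15481517-15481546, minus strand: gatacgctcatcAGATAAttcaatgacctc

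The gene nhr-60, expressed in seam cells of the epidermis, had only a region at 0.878-fold (rank 21242). The gene nhr-176, which regulates the cytochrome P450 response to the drug thiabendazole, had no ranked region in its window.

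Members lie in clusters, defined as runs of successive members less than 20000 bp apart. There were 30 clusters with 128 members, and 39 members stood alone. Within clusters 78 of 98 neighbouring members were on the same strand (79.6%), against 55.8% of all 4993 neighbouring protein-coding genes on V. The 12 clusters of 4 or more held 87 members, of which 33 had a ranked region (37.9%, exact 95% interval 27.7 to 49.0%) and 2 had a peak, nhr-155 and nhr-179. In the 18 clusters of 2 or 3, 23 of 41 members had a region (56.1%, 39.7 to 71.5%) and 5 had a peak. Of the single members, 19 of 39 had a region (48.7%, 32.4 to 65.2%), and nhr-175 and nhr-260 had a peak. The share of members with a peak was 2.30% (0.280 to 8.06%) in clusters of 4 or more and 12.2% (4.08 to 26.2%) in those of 2 or 3. In single members it was 5.13% (0.627 to 17.3%). The intervals overlap for both shares, and a difference by cluster size was not tested. The shares with a peak are here of all members, with or without a ranked region. On that basis the share was 5.39% of all members and 9.80% of receptors outside V. It was 0.249% of other genes on V and 0.806% of all protein-coding genes. The interval of clusters of 4 or more included the share of all genes.

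In each cluster of 4 or more, at most 1 member had a peak. The largest cluster, from nhr-123 to nhr-131, packs 12 members into 45.8 kb, and 3 of them had a region, the strongest at nhr-130 (1.14-fold). The next cluster, from nhr-210 to nhr-155, had a region at each of its 4 members, among them 1.10-fold at nhr-210, 2.27-fold at nhr-132 and 10.1-fold at nhr-155. In the cluster from nhr-178 to nhr-238, nhr-179 at 4.15-fold was 1 of 4 members with a region out of 7, and the end genes nhr-178 and nhr-238 had none.

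Further along, the cluster from nhr-13 to nhr-96 had 10 members, of which nhr-56 (2.96-fold, rank 408) and nhr-96 (0.764-fold) had a region. The cluster from nhr-185 to nhr-156 had a region at 8 of 10 members, all weak, with nhr-189 the strongest at 1.42-fold. Those from nhr-161 to nhr-42, from nhr-206 to nhr-136 and from nhr-44 to nhr-143 had a region at 4 of 7, 5 of 7 and 1 of 4 members. Their strongest were nhr-140 (2.50-fold), nhr-206 (1.21-fold) and nhr-44 (2.45-fold). The cluster from nhr-60 to nhr-282 had 2 of 5, led by nhr-223 (1.21-fold).

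In 7 clusters with 31 members no ranked region fell in any window. They include the 9 genes from nhr-182 to nhr-226, the 8 genes from nhr-51 to nhr-53 and the 4 genes from nhr-263 to nhr-149. The treatment of reads that map to several places is not given in the sources used here. By 32-base words the members' windows were mostly single-copy: the median repeat share was 0, also in members without a region, and 2 members exceeded 50% (nhr-141 at 94.2% and nhr-247 at 54.5%), or 1.20%, against 4.27% of other genes on V. Of the 12 members with the highest repeat shares (22.1 to 94.2%), 10 had no ranked region, these 2 among them, and 3 of the 10 (31.4 to 49.2%) lie in the cluster from nhr-182 to nhr-226. The part of repeats in the lack of regions was not tested. Along the chromosome, 3 equal stretches from left to right held 78, 41 and 48 members, with a ranked region at 39, 22 and 14 of them and a peak at 3, 5 and 1. Of other genes with a ranked region there, 6 of 547, 5 of 682 and 1 of 483 had a peak.

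The replicates were compared over the 97 regions by the nearest summit within 100 bp. Both replicates had such a summit for 28 regions (28.9%), against 14.2% of regions of other genes on V, 27.2% of regions of receptors outside V and 15.3% of all promoter regions. A summit was found in replicate 1 alone for 26, in replicate 2 alone for 27 and in neither for 16. Across the 28 regions the fold in replicate 1 and replicate 2 had Spearman's rho 0.632 and Pearson's r 0.709 on the log2 scale, a description over regions that come from the same 2 libraries. Without the 3 strongest regions, rho was 0.485 and r was 0.473 over 25. Over matched regions of receptors outside V, rho was 0.386 and r 0.510. For other genes on V they were 0.141 and 0.348, and for all genes 0.347 and 0.574. Of the members' regions 24.7% were among the first 1000, against 5.0% for all genes. The part of region strength in the matched shares and in rho was not tested. The pooled list was made from both libraries, so its ranks are not independent of these values.

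**Figure D4:**
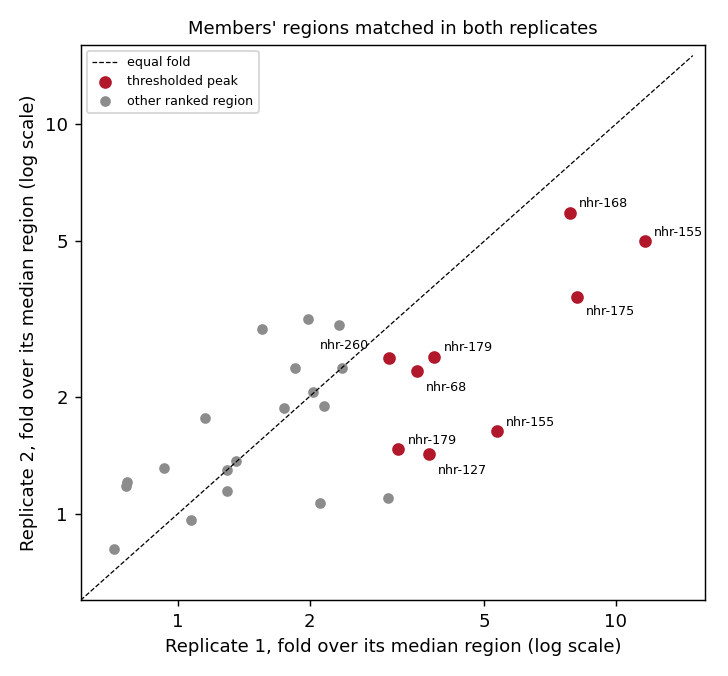
Fold in replicate 1 and replicate 2 (both axes logarithmic) for the 28 member regions matched in both, with peaks in red and named, other ranked regions in grey, and the line of equal fold dashed. The 9 matched peaks lie below the line, higher in replicate 1, while the grey regions fall on both sides of it.

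All 9 matched peaks were higher in replicate 1, whereas of the 28 matched regions 15 were higher in replicate 1 and 13 in replicate 2. Of the 10 peaks, 8 were among the first 351 regions of replicate 1, 5 among those of replicate 2, 4 in both and 1 in neither. For the 145 promoter peaks of all genes these counts were 110 (75.9%), 91 (62.8%), 68 and 12. Over all genes, 83.2% of 137 matched promoter peaks of all genes were higher in replicate 1.

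Each replicate was also read on its own. In replicate 1, one of its first 351 regions lay in the window of 9 of 79 members with a region (11.4%, background 2.00% of 8138 genes). In replicate 2 it was 8 of 68 (11.8%, background 2.03% of 7913 genes). The genes overlapped in part: nhr-155, nhr-168, nhr-175 and nhr-179 were called in both, nhr-57, nhr-68, nhr-94, nhr-127 and nhr-152 in replicate 1 alone, and nhr-56, nhr-150, nhr-251 and nhr-260 in replicate 2 alone. Thus 13 members were called in at least 1 of the 3 lists. Of these, nhr-56, nhr-57, nhr-150 and nhr-251 are not in the thresholded list. A partial overlap was also seen over all genes. By matched summits, 146 of all 9023 promoter regions were among the first 351 of replicate 1, 136 among those of replicate 2 and 69 in both. For the members' 97 regions these counts were 9, 8 and 4. The region of nhr-150 stood at 1.98-fold in replicate 1 (rank 1422) and 3.16-fold in replicate 2 (rank 146), and that of nhr-251 at 1.56-fold (rank 3587) and 2.98-fold (rank 173). The strongest region that differed most in rank was that of nhr-208, at rank 26638 in replicate 1 and 8514 in replicate 2, or 0.77-fold and 1.21-fold.

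The sequences around the summits were searched for the usual GATA words, which are AGATAA or AGATAG and the same with T as the first base (TGATAA or TGATAG), on both strands within 50 bp. They were found in 21 of the 97 member regions (21.6%), close to the 21.4% of all promoter regions. In the peaks they were found in 3 of 10 (30%, exact 95% interval 6.67 to 65.2%), against 67 of 135 promoter peaks of other genes (49.6%, 40.9 to 58.4%). The 3 were nhr-175, nhr-94 with nhr-152, and the weaker nhr-179 peak. The lower share in member peaks held only for this distance. Within 25 bp it was 30% in member peaks and 30.4% in promoter peaks of other genes. Within 100 bp it was 60% and 58.5%. Median GC content of the windows was 38.6% in member regions and 36.6% in those of other genes on V.

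CGATAA, which differs from the usual words in its first base, was counted after it had been noticed in the sequences printed above. Of the 10 member peaks, 6 held it at most 50 bp from the summit (60%, exact 95% interval 26.2 to 87.8%), those at nhr-168, nhr-179, nhr-155, nhr-260, nhr-68 and nhr-127. It lay in 20 of 135 promoter peaks of other genes (14.8%, 9.29 to 21.9%), in 17.4% of all 351 peaks and in 5.26% of all promoter regions. No test is given for a word picked this way. Within 50 bp of the summit, every one of the 6 peaks lacked the usual words. At this distance 9 of 10 peaks thus held 1 kind or the other and none held both. The remaining peak, the stronger one of nhr-155, had the usual word TGATAA across the edge of the window. The nearest base of that word lay 46 bp from the summit, so the count depends on this cut. Of the 341 other peaks, 159 held a usual word alone, 28 CGATAA alone and 27 both. Farther from the summit, the peak regions of nhr-260 and nhr-68 did hold usual words (1 and 3).

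The word was followed by G in 5 of the 6. CGATAAG, on either strand, was thus in 5 of the 10 member peaks, against 7 of 135 promoter peaks of other genes (5.19%) and 0.92% of all promoter regions. Of the 14 member regions next below the threshold and within rank 1000, 3 held CGATAA (21.4%, exact 95% interval 4.66 to 50.8%, which overlaps that of the peaks), as did 1 of the 12 that follow to rank 5000 and 4 of 61 beyond 5000. In the replicates' own first 351 regions it lay in 5 of 9 member regions in replicate 1, against 23 of 137 (16.8%) of other genes, and in 3 of 8 in replicate 2, against 15 of 130 (11.5%). In the peaks of receptors outside V it lay in 1 of 9.

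By place, 5 of the 10 member peaks had their summit in an exon (50%), 4 between genes and 1 in an intron. Of promoter peaks of other genes, 16 of 135 (11.9%) lay in an exon. This comparison was not planned, rests on 10 member peaks and was not tested. Of all 97 member regions 30 did (30.9%), close to the 32% of all promoter regions. The exonic peaks were those of nhr-168, nhr-179 (both), nhr-68 and the pair nhr-94 and nhr-152. Apart from nhr-68, whose summit fell in a coding exon of H12C20.7, these exons were 5′ untranslated.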

How the data were processed

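ELT-1-eGFP ChIP-seq regions of 2 biological replicates were read from the lists on ce11. The signal of each region was used as the authors deposited it; the sources used here do not give its normalization, the read alignment, the calling of regions, the cutoff or the control strain. Per the deposited file listings, each replicate has its own ranked list, and the pooled and thresholded lists come from both. Lists on ce10 and the other score columns were not used.

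Gene models came from Ensembl release 115 (WBcel235, the same assembly as ce11) and bases from the RefSeq copy. Folds divide by the list's median, since scales differ between lists. Replicate values come from the nearest summit within 100 bp. Exact intervals are Clopper-Pearson at 95%. No hypothesis test was made: there is 1 group. Names and chromosome alone set the members, but this family, and so its members, the gene lists and CGATAA were chosen with earlier results of these data known. Neither GATAA nor CGATAAG was a planned word. Genes named are all members with a peak, the 10 next strongest, the one with the largest rank difference, the first, last and strongest of each cluster of 4 or more, and 5 with known roles; nhr-141, nhr-150, nhr-187 and nhr-247 were named after their values were seen. Steps were tested on simulated data. Python 3.11.15 with pandas 2.3.3 and scipy 1.17.1 was used.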

Additional observations from a re-analysis of the deposited data

How the results depend on the processing

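Of 67 alternative values for the main results, 51 stayed within the tolerance and 16 moved past it. The tolerance was 1.5 times for counts, 0.1 for rho, 1 SD between replicates for the median fold and the exact interval for shares. The shares of other genes were not recomputed, apart from those of single replicates. With the window narrowed to 500 bp before and 100 bp after a start, 48 members had a ranked region, 6 distinct peaks remained (without those of nhr-127 and nhr-260, the farther one of nhr-155 and the stronger one of nhr-179), the median fold was 1.37 and 17 regions were matched in both replicates. By nearest transcript start within 5000 bp, there were 15 distinct peaks, the median fold was 1.14 and 49 regions were matched, with nhr-187, nhr-251 and nhr-270 gaining a peak and nhr-68 and nhr-94 losing theirs. Counting only peaks at or above the median peak signal left 3 called members with 3 distinct peaks, 2 of these members in clusters. All 3 peaks were among the first regions of replicate 1 and of replicate 2. The stronger nhr-179 peak (rank 177) missed this cut narrowly, with a signal of 32.38 against the median of 32.43. From single replicates, the median fold was 1.12 to 1.15, and without replicate 1 the called members were 8, of which 5 were shared with the pooled calls. The share of member regions with a usual GATA word was 13.4% within 25 bp, 44.3% within 100 bp and 12.4% for AGATAA alone. CGATAA, with settings chosen after seeing the data, lay in 50% of the member peaks within 25 bp and in 70% within 100 bp, and in 37.5% of the members' first regions from replicate 2 alone. No paired analysis was possible because there is 1 group. Read depth is unknown, and 2 replicates limit every SD.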

Other observations

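Outside the promoter windows, 6 more peaks had a member's transcript start as the nearest one within 5000 bp. The strongest lay 1215 bp downstream of an internal start of nhr-270 (minus strand), at chrV:801842-801915. This is beyond the 3′ end of the gene at chrV:802546. Its pooled rank was 37, and it stood at 6.78-fold in replicate 1 and 5.63-fold in replicate 2. Another lay 2583 bp downstream of the same internal start (rank 342), also beyond the 3′ end, at 1.47-fold in replicate 1 and 2.74-fold in replicate 2. Upstream of nhr-251, a peak at 2517 bp (rank 95) stood at 7.04-fold in replicate 1 and 2.38-fold in replicate 2, and one at 3378 bp (rank 248) at 2.90-fold and 3.28-fold. A peak 2537 bp upstream of nhr-187 (rank 215) stood at 3.09-fold in replicate 1 and 3.69-fold in replicate 2. The last, 516 bp downstream of a start of nhr-127 (rank 273), stood at 2.21-fold in replicate 1 and 2.94-fold in replicate 2. Unlike the 9 matched promoter peaks, which were all higher in replicate 1, 4 of these 6 were higher in replicate 2. Of the 6, 3 held a usual GATA word at most 50 bp from the summit, at nhr-270 (both) and nhr-187, and 1 held CGATAA, at nhr-127. Of all 206 peaks outside promoter windows, 57.8% held a usual word and 17.0% CGATAA at this distance.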
